A study of Mus musculus with 4 samples.

Results

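The nuclear-encoded genes of the mitochondrial respiratory chain were described in microglia of mouse embryos with and without a deletion of Bach1. They were 91 of the 21981 genes in the deposited tables. They were chosen by name, as protein coding genes whose symbols begin with Ndufa, Ndufb, Ndufc, Ndufs, Ndufv, Uqcr, Cox4 to Cox8 or Atp5, together with Cyc1 and Sdha, Sdhb, Sdhc and Sdhd, a rule that uses no measured value, though it was set with earlier results of these data known. By function, 45 belong to complex I (7 catalytic core subunits, 29 accessory subunits and 9 assembly factors), 4 to complex II, 9 to complex III, 17 to complex IV and 16 to complex V. Ndufa4 and Ndufa4l2 were counted with complex IV, where the NDUFA4 protein sits despite its name, and Atp5sl with the assembly factors of complex I. All 91 genes had reads in each of the 4 libraries, and 89 of them passed the filter on low counts. Cox6a2 and Cox7a1 did not pass.

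Microglia, the resident macrophages of the brain, came from the cerebral cortex of untreated mouse embryos at embryonic day 16. Libraries cKO 2 and cKO 5 were labelled as a conditional knockout of Bach1, with a driver that the series text writes as Cx3. Libraries control 1 and control 6 were from Bach1 fl/fl mice, whose Bach1 alleles are floxed. The labels name neither the Cre line, nor the number of embryos per library, nor how the cells were isolated. The design text speaks of triplicates, and libraries beyond these 4 were not analysed here. Whether each library is from a different animal is not stated in the labels, and p-values measure only the spread between these samples.

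Bach1 encodes a heme-binding repressor of transcription. In counts per library scaled to a common total (CPM), its own level was 29.98 CPM (cKO 2) and 35.4 CPM (cKO 5), against 45.8 CPM (control 1) and 21.6 CPM (control 6), so the values of the genotypes overlapped. The exons that the deletion removes are not named in the sources used here, and this level therefore does not check the labels. The names cKO and control below are those of the labels.

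The respiratory chain passes electrons from NADH, through complex I, and from succinate, through complex II, to ubiquinone, and then through complex III, cytochrome c and complex IV to oxygen. Complexes I, III and IV pump protons across the inner mitochondrial membrane, and complex V, the ATP synthase, uses the return flow to make ATP. Complex II is built from nuclear genes alone, whereas the other complexes also hold subunits encoded by mitochondrial DNA. In macrophages and microglia the balance between this pathway and glycolysis is known to shift with activation.

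The libraries differed in their marker genes in ways that did not follow genotype. The 18 microglial markers summed to 11353 CPM in cKO 2 and 43627 CPM in cKO 5, against 30799 CPM in control 1 and 49064 CPM in control 6. The 12 markers of cortical neurons summed to 5063 and 427 CPM in cKO 2 and cKO 5 and to 1458 and 459 CPM in control 1 and control 6. The 8 radial glia and progenitor markers gave 899 and 141 CPM in cKO 2 and cKO 5 and 482 and 155 CPM in control 1 and control 6, and the 8 interneuron markers gave 282 and 41.0 CPM in cKO and 73.0 and 43.3 CPM in control. Neural markers were thus highest in cKO 2. Vessel markers were high in cKO 2 and control 1, with 8 endothelial markers at 2633 and 341 CPM in cKO 2 and cKO 5 and 3326 and 619 CPM in control 1 and control 6, and 8 pericyte markers at 3499 and 284 CPM in cKO and 3897 and 759 CPM in control. The 8 erythroid markers gave 220 and 113 CPM in cKO 2 and cKO 5 and 308 and 111 CPM in control 1 and control 6. No marker was at 0 in any library, and the microglial markers were the most abundant of these lists in every library. In such bulk samples, fewer cells of a type and less RNA per cell cannot be told apart. The part of these markers in the results below was not tested. Values without cKO 2, the library with the lowest microglial marker sum, are given for the members' medians and counts above or below both controls. For some single genes, sums and isoform shares, only ranges over leaving out each library are given. For the other gene lists neither is given. The libraries held 17310621 and 19305078 reads for cKO 2 and cKO 5 and 17472809 and 17233115 reads for control 1 and control 6. A count of 3 reads, taken as the floor, corresponds to between 0.155 and 0.174 CPM, and floors and intervals cover counting error only.

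The respiratory chain genes together took 0.786% of the reads in cKO 2 and 0.757% in cKO 5, against 0.737% in control 1 and 0.697% in control 6. Both cKO libraries thus stood above both controls, by 543 CPM on average (7713 ± 201 CPM in cKO and 7170 ± 287 CPM in control, SD, n = 2 each). The exact permutation test gave p = 0.333, two-sided, which is the smallest p that 2 libraries against 2 can give. The order changed when each library was divided by its TMM factor, a scaling that sets the bulk of genes equal between libraries. The sums were then 6846 CPM in cKO 2 and 8235 CPM in cKO 5, against 7135 CPM in control 1 and 7594 CPM in control 6, so the genotypes overlapped.

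Complex V took the largest share of this signal, with 3542 CPM in cKO 2 and 3421 CPM in cKO 5, against 3315 CPM in control 1 and 2933 CPM in control 6. Complex III, which hands electrons from ubiquinol to cytochrome c, had 559 and 480 CPM in the cKO libraries and 462 and 443 CPM in the controls. For both complexes the genotypes did not overlap, each with the smallest possible exact permutation p of 0.333, but after TMM scaling complex V overlapped (3087 and 3721 CPM in cKO 2 and cKO 5, against 3208 and 3198 CPM in control 1 and control 6). Complex I had 1907 and 1589 CPM in cKO 2 and cKO 5, against 1611 and 1639 CPM in control 1 and control 6, so cKO 2 was the highest library and cKO 5 the lowest (exact permutation p = 1). Complex II had 1028 and 1191 CPM in cKO and 1107 and 1190 CPM in control (exact permutation p = 1). Complex IV had 818 and 889 CPM in cKO and 879 and 762 CPM in control (exact permutation p = 0.667). Complexes I, II and IV overlapped between genotypes.

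Single genes did not all follow their complex. On plain CPM, cKO 2 was the highest library for 64 of the 91 genes and the lowest for 9, whereas cKO 5 was the highest for 13 and the lowest for 29. Control 1 was the highest for 5 and the lowest for 21, and control 6 was the highest for 9 and the lowest for 32. The same counts over all genes were not made. In the authors' deposited CPM ratios, cKO 2 exceeded control 1 for 83.5% of members, beside 59.4% of all genes. It exceeded control 6 for 80.2% of members, beside 63.8%. After TMM scaling, the members' median log2 deviation from the gene mean was 0.05 in cKO 2 and 0.07 in cKO 5. It was −0.11 in control 1 and 0.02 in control 6. In 44 of the 91 the highest library was under 1.5 times the lowest, and in 19 it was over 2 times the lowest.

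**Figure D1:**
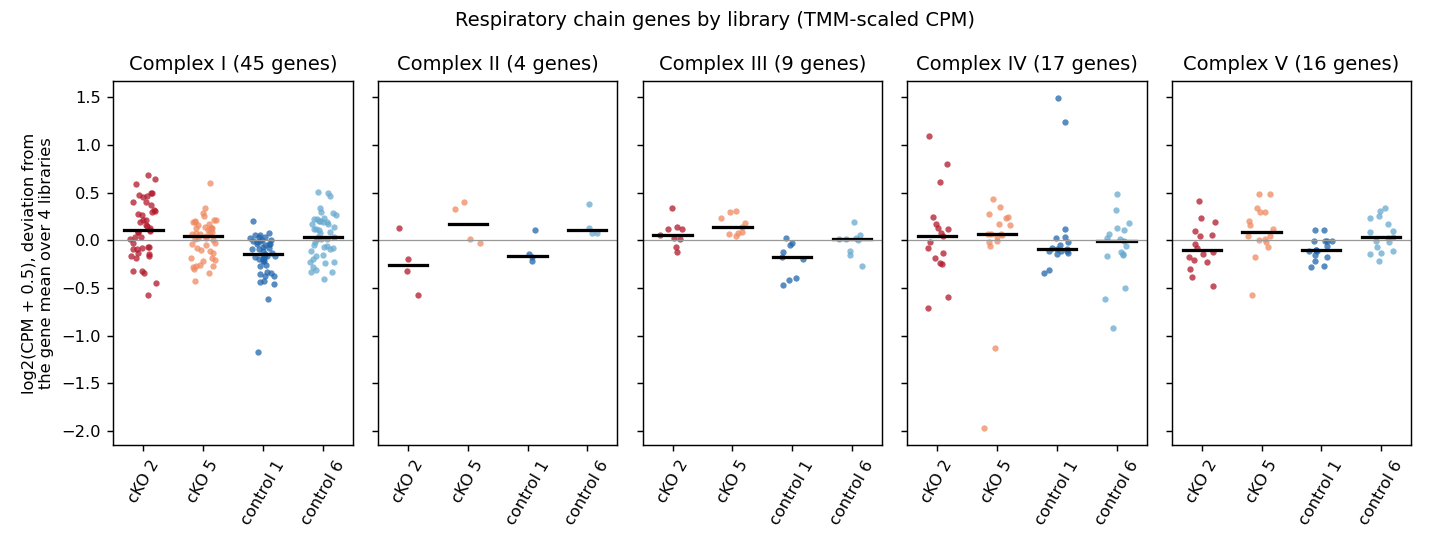
Each point is 1 gene in 1 library, plotted as log2(CPM + 0.5) after TMM scaling minus the gene's mean over the 4 libraries, with black bars at the medians. Complex III medians were 0.06 in cKO 2 and 0.14 in cKO 5 against −0.17 in control 1 and 0.01 in control 6, and the widest points belong to tissue-limited isoforms of complex IV.

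No respiratory chain gene passed the test between genotypes. The quasi-likelihood test of edgeR, run on all 15951 genes that passed the filter with Benjamini-Hochberg adjustment, called 0 genes higher and 0 lower in cKO at an adjusted p under 0.05 (background 0% in each direction), and every one of the 89 tested members had an adjusted p of 0.99969. At an unadjusted p under 0.05 it called 0 of the 89, against 28 of all genes higher (0.176%) and 21 lower (0.132%). DESeq2 and limma-voom also called 0 genes after adjustment, with 74 and 37 genes of the whole table at an unadjusted p under 0.05 and 0 members among them. The biological coefficient of variation between libraries of the same genotype was 0.652, and 2 residual degrees of freedom were left.

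More members had higher than lower values in cKO. Of the 89 tested, 60 had a positive and 29 a negative log2 fold change (cKO over control), with a median of 0.10, beside 0.03 over all genes tested. The split was 72 to 17 on library totals alone and 46 to 44 without control 1. On library totals the median over all genes also rose, to 0.11. Relative to all genes the members' median was then 0.077, beside 0.070 in the main fit. The medians were 0.14 in complex I, −0.04 in complex II (0.02 on library totals alone), 0.18 in complex III, 0.06 in complex IV and 0.08 in complex V. Without cKO 2 the members' median was 0.15, beside −0.03 over all genes, and the medians of complexes I to V were 0.11, 0.18, 0.24, 0.18 and 0.18. Without control 1 the members' median was 0.01, beside 0.09 over all genes.

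Both cKO libraries lay above both controls on TMM-scaled CPM for 26 of the 89 tested members (29.2%), where 8.33% of all tested genes did so. They lay below both controls for 4 members (4.49%), where 7.64% of all tested genes did so. The 26 comprised 12 of 45 genes of complex I, 0 of 4 of complex II, 5 of 9 of complex III, 6 of 15 of complex IV and 3 of 16 of complex V. Their log2 fold changes were small, between 0.11 for Cyc1 and 0.94 for Ndufb2 with a median of 0.29, a fold of 1.22, and only Ndufb2 and Ndufb9 had a log2 fold change larger than 1 standard error. On plain CPM 24 tested members lay above both controls (26.97%, beside 9.31% of all genes) and 4 below (4.49%, beside 6.57%). When libraries were instead scaled to equal microglial marker level, 3 members lay above both controls and 0 below, beside 9.61% and 1.20% of all genes. That scaling gave all 89 members a positive fold change, with a median of 1.22, but it also moved the median of all genes from 0.03 to 1.12. Relative to all genes, the members' median was then 0.11, beside 0.07 with TMM. Without cKO 2, 47 of 90 tested members had cKO 5 above both controls (52.2%, beside 33.2% of all genes) and 13 had it below both (14.4%, beside 33.0%). Without cKO 5, cKO 2 lay above both controls for 40 (44.4%, beside 39.7%) and below for 30 (33.3%, beside 35.9%). Without control 1 the counts above and below were 28 (31.1%, beside 24.4%) and 27 (30%, beside 24.0%), and without control 6 they were 43 (48.3%, beside 20.7%) and 7 (7.87%, beside 21.9%).

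**Figure D2:**
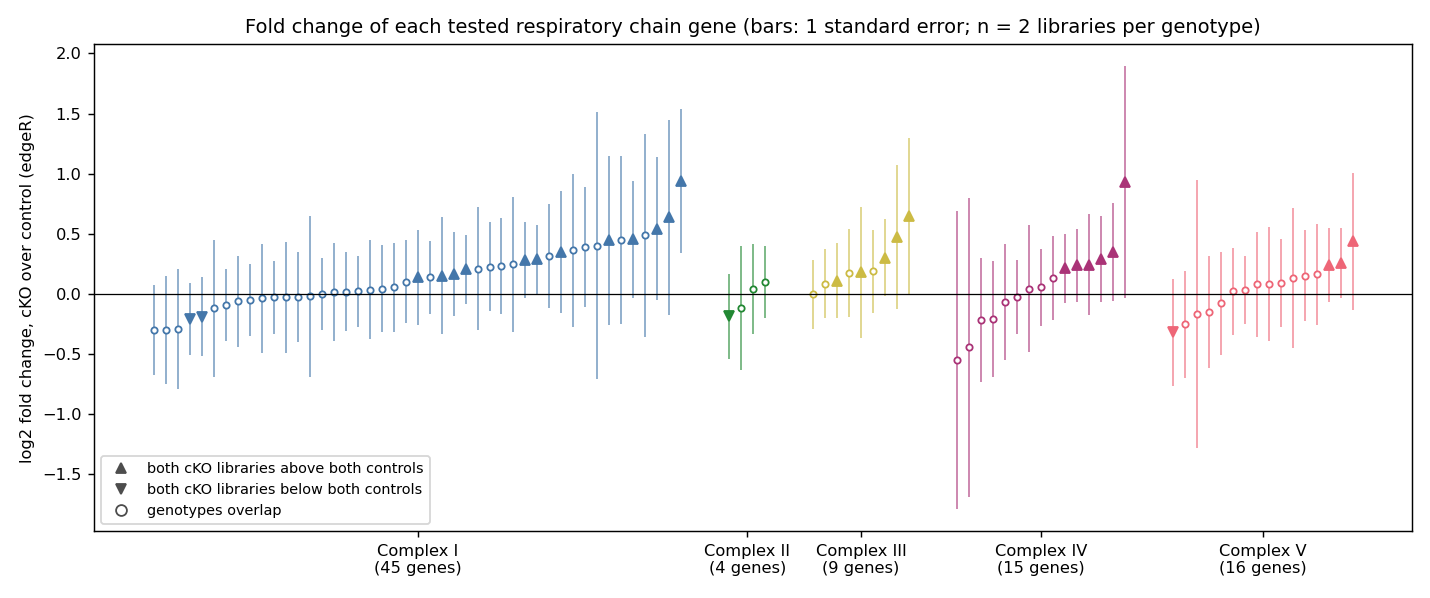
The log2 fold change of cKO over control from edgeR is drawn for each of the 89 tested genes, grouped by complex and ordered by size, with bars of 1 standard error (n = 2 libraries per genotype). Upward triangles mark the 26 genes with both cKO libraries above both controls on TMM-scaled CPM and downward triangles the 4 with both below, and all bars but those of Ndufb2 and Ndufb9 cross 0.

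Among the core subunits of complex I, which carry the flavin and the iron-sulfur clusters that take electrons from NADH, no gene had a log2 fold change larger than its standard error. Ndufs1, the largest of them, had 158 CPM (cKO 2) and 141 CPM (cKO 5), against 145 CPM (control 1) and 134 CPM (control 6), and its log2 fold change was 0.02 ± 0.29 (SE). Ndufs8 had 66.3 CPM (cKO 2) and 94.7 CPM (cKO 5), against 80.6 CPM (control 1) and 109.6 CPM (control 6), so control 6 was highest and cKO 2 lowest (log2 fold change −0.30 ± 0.45). Ndufv1, whose protein binds NADH, followed neither genotype, with 153 and 78.8 CPM in cKO 2 and cKO 5 and 129 and 89.3 CPM in control 1 and control 6. It was higher in cKO 2 and control 1 than in cKO 5 and control 6. The sums of vessel, neural and erythroid markers were all higher in cKO 2 and control 1 too, and a link to any of them was not tested. Ndufs3 showed the widest spread of the core genes, with 8.38 and 5.23 CPM in cKO 2 and cKO 5 and 2.00 and 6.73 CPM in control 1 and control 6, and control 1 was its lowest library. Its counts are uncertain, since 39.7% of the 50-base stretches of its mRNA also occur in transcripts of other genes.

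The accessory subunits of complex I, which surround the core and are needed for its assembly and stability, held the member furthest from 0. Ndufb2 (ENSMUSG00000002416, chromosome 6, 39592574 to 39603382 in GRCm38 coordinates) had 8.72 CPM (cKO 2) and 5.02 CPM (cKO 5), against 3.49 CPM (control 1) and 3.13 CPM (control 6), so both cKO libraries lay above both controls, with a log2 fold change of 0.94 ± 0.60 and the smallest p of any member in edgeR (unadjusted p = 0.185, adjusted p = 0.99969). Ndufb9 had 72.6 CPM (cKO 2) and 63.1 CPM (cKO 5), against 57.9 CPM (control 1) and 47.5 CPM (control 6), and again the genotypes did not overlap (log2 fold change 0.29 ± 0.29). Ndufs4, a late-added subunit whose loss causes Leigh-like disease in mice and humans, had 68.97 and 50.9 CPM in cKO 2 and cKO 5 and 52.02 and 45.6 CPM in control 1 and control 6, where control 1 exceeded cKO 5, and after TMM scaling the genotypes did not overlap. At the other end, Ndufb8 had 23.5 CPM (cKO 2) and 28.3 CPM (cKO 5), against 30.1 CPM (control 1) and 31.04 CPM (control 6), and a log2 fold change of −0.30 ± 0.38, with both cKO libraries below both controls on plain CPM but not after TMM scaling. The 29 accessory genes ranged from 0.995 CPM on average for Ndufa1 to 208 CPM for Ndufa9. The 9 assembly factors, which help to build complex I without being part of it, summed to 283 and 202 CPM in cKO 2 and cKO 5, against 211 and 230 CPM in control 1 and control 6, so cKO 2 was highest and cKO 5 lowest.

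Complex II, which is also the succinate dehydrogenase of the TCA cycle, was the only complex with no gene above both controls. The flavoprotein gene Sdha (ENSMUSG00000021577, chromosome 13, 74322254 to 74350280) had 476 CPM (cKO 2) and 441 CPM (cKO 5), against 529.8 CPM (control 1) and 462 CPM (control 6), and both cKO libraries lay below both controls after TMM scaling, though not on plain CPM, with a log2 fold change of −0.18 ± 0.35. The iron-sulfur subunit gene Sdhb had 98.6 CPM (cKO 2) and 70.7 CPM (cKO 5), against 71.5 CPM (control 1) and 75.8 CPM (control 6), with cKO 2 highest and a log2 fold change of 0.10 ± 0.30. Sdhc and Sdhd encode the membrane anchor. Sdhc had 114 and 143 CPM in cKO 2 and cKO 5 and 116 and 125 CPM in control 1 and control 6, and Sdhd had 339.9 CPM (cKO 2) and 536 CPM (cKO 5), against 390.3 CPM (control 1) and 527 CPM (control 6), a log2 fold change of −0.12 ± 0.52. Sdhd was thus higher in cKO 5 and control 6, the libraries with the higher microglial marker sums, than in cKO 2 and control 1. The ratio of Sdhd to Sdha reads made the same split, at 0.715 in cKO 2 and 1.21 in cKO 5 against 0.737 in control 1 and 1.14 in control 6.

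In complex III the 5 genes with both cKO libraries above both controls were Cyc1, Uqcrfs1, Uqcrh, Uqcr10 and Uqcr11. Cyc1, the cytochrome c1 gene, had 286 CPM (cKO 2) and 239 CPM (cKO 5), against 233 CPM (control 1) and 226 CPM (control 6), a log2 fold change of 0.11 ± 0.31. Uqcrfs1, the gene of the Rieske iron-sulfur protein, had 36.8 and 30.98 CPM in cKO 2 and cKO 5 and 29.9 and 22.4 CPM in control 1 and control 6, and the genotypes did not overlap. Uqcrh, the hinge protein gene, was low throughout, with 4.91 CPM (cKO 2) and 3.63 CPM (cKO 5), against 2.40 CPM (control 1) and 2.67 CPM (control 6), and had the highest fold change of the complex (log2 0.65 ± 0.65). The core protein gene Uqcrc1 had 79.03 CPM (cKO 2) and 69.6 CPM (cKO 5), against 71.9 CPM (control 1) and 69.1 CPM (control 6), with cKO 2 highest, and a log2 fold change of −0.0036 ± 0.29.

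Complex IV contains subunits that exist as isoforms, a ubiquitous form and one limited to certain tissues, and the tissue-limited forms varied most between libraries. Ndufa4l2 (ENSMUSG00000040280, chromosome 10, 127514967 to 127517154), a hypoxia-inducible relative of Ndufa4 known as a pericyte gene in the mouse brain, had 84.2 CPM (cKO 2) and 7.67 CPM (cKO 5), against 101 CPM (control 1) and 20.4 CPM (control 6). Cox4i2 (ENSMUSG00000009876, chromosome 2, 152754173 to 152765037), the hypoxia-responsive form of subunit 4 that is abundant in lung, had 7.05 CPM (cKO 2) and 1.14 CPM (cKO 5), against 8.81 CPM (control 1) and 1.39 CPM (control 6). Both were higher in cKO 2 and control 1 than in cKO 5 and control 6, so the genotypes overlapped, and their log2 fold changes were −0.55 ± 1.24 and −0.44 ± 1.24. The ubiquitous partners were steadier, with Ndufa4 at 17.7 and 11.9 CPM in cKO 2 and cKO 5 and 12.6 and 10.7 CPM in control 1 and control 6 and Cox4i1 at 74.6 and 80.2 CPM in cKO 2 and cKO 5 and 71.1 and 71.3 CPM in control 1 and control 6. As a share of the reads of the pair, Ndufa4l2 took 82.6% in cKO 2 (95% exact binomial interval 80.8 to 84.4) and 39.3% in cKO 5 (34.3 to 44.4), against 88.8% in control 1 (87.4 to 90.2) and 65.6% in control 6 (61.4 to 69.6). The intervals were separate in all 4 libraries, and the genotypes overlapped (exact permutation p = 0.667). Cox4i2 took 8.63% and 1.40% of the Cox4i1 and Cox4i2 reads in cKO 2 and cKO 5, against 11.03% and 1.92% in control 1 and control 6 (exact permutation p = 0.667).

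The vessel markers, both pericyte and endothelial, moved with these isoforms. Ndufa4l2 amounted to 24.1 and 27.0 CPM per 1000 CPM of the summed 8 pericyte markers in cKO 2 and cKO 5, against 25.8 and 26.8 in control 1 and control 6. That ratio spanned 1.12-fold over the libraries, where Ndufa4l2 itself spanned 13.1-fold and the marker sum 13.7-fold. For Cox4i2 the ratio was 2.01 and 4.02 in the cKO libraries and 2.26 and 1.83 in the controls, a span of 2.19-fold, and for Ndufa4 it spanned 12.9-fold. The sum of the 8 endothelial markers was also high in cKO 2 and control 1. It spanned 9.74-fold, and Cox4i2 itself spanned 7.73-fold. Ratios to the endothelial sum were not taken. Whether these isoforms follow pericytes rather than other cells with markers high in cKO 2 and control 1 was not tested. The ratios to the pericyte markers were computed after the values of both genes had been seen, and they are a description of 4 libraries.

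**Figure D3:**
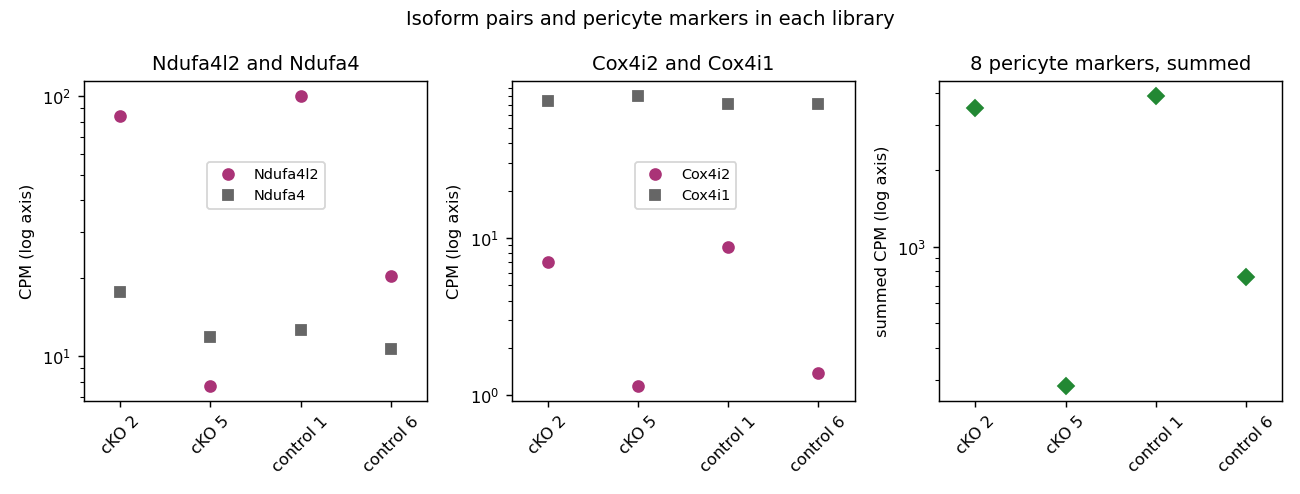
CPM of Ndufa4l2 and Ndufa4, of Cox4i2 and Cox4i1, and the summed CPM of 8 pericyte markers are drawn for each library, each on a log axis. Ndufa4l2 and Cox4i2 were high in cKO 2 and control 1 and low in cKO 5 and control 6, as was the marker sum (3499 and 284 CPM in cKO, 3897 and 759 CPM in control).

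The remaining isoforms were scarce. Cox6b2, the testis form of subunit 6b, had 1.91 CPM (cKO 2) and 0.829 CPM (cKO 5), against 0.858 CPM (control 1) and 0.464 CPM (control 6), which was 15.9% and 8.84% of the Cox6b1 and Cox6b2 reads in cKO 2 and cKO 5, against 8.62% and 4% in control 1 and control 6. Its log2 fold change of 0.93 ± 0.96 was the highest of complex IV, with both cKO libraries above both controls after TMM scaling though not on plain CPM, and it rests on 33, 16, 15 and 8 reads in cKO 2, cKO 5, control 1 and control 6. The heart and muscle forms Cox6a2 and Cox7a1 took at most 0.721% and 0.627% of the reads of their pairs in any library. Among ubiquitous subunits Cox6a1 had 129.5 CPM (cKO 2) and 113 CPM (cKO 5), against 102 CPM (control 1) and 95.9 CPM (control 6), a log2 fold change of 0.21 ± 0.29, and Cox7a2, Cox7b and Cox5b also had both cKO libraries above both controls. Cox8a had 56.6 and 68.5 CPM in cKO 2 and cKO 5 and 55.9 and 54.1 CPM in control 1 and control 6, with cKO 5 highest. Cox7a2l, whose product joins complexes III and IV into supercomplexes, had the most reads of the 17 complex IV genes, with 288 CPM (cKO 2) and 473 CPM (cKO 5), against 401 CPM (control 1) and 380.2 CPM (control 6), so cKO 5 was highest and cKO 2 lowest (log2 fold change −0.07 ± 0.48). Its reads outnumbered those of Cox7a2 by 6.30 and 13.9 times in cKO 2 and cKO 5 and by 11.9 and 12.7 times in control 1 and control 6.

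In complex V the F1 genes, whose products form the catalytic head, carried most of the reads. Atp5b (ENSMUSG00000025393, chromosome 10, 128083273 to 128090391), the catalytic beta subunit gene, had 1939.6 CPM (cKO 2) and 1743 CPM (cKO 5), against 1787 CPM (control 1) and 1516 CPM (control 6), and alone took 24.7% and 23.0% of the reads of all 91 genes in cKO 2 and cKO 5, against 24.2% and 21.8% in control 1 and control 6. Control 1 lay between the cKO libraries, and the log2 fold change was 0.08 ± 0.48. Atp5a1, the alpha subunit gene, had 514 and 506 CPM in cKO 2 and cKO 5 and 508 and 449.7 CPM in control 1 and control 6, with control 6 lowest. Atp5j, a gene of the stalk that joins the head to the membrane, had the highest fold change of the complex, with 6.41 CPM (cKO 2) and 5.96 CPM (cKO 5), against 4.35 CPM (control 1) and 4.29 CPM (control 6), and a log2 fold change of 0.44 ± 0.57. Atp5s, which encodes coupling factor B, had the lowest, with 12.02 CPM (cKO 2) and 9.27 CPM (cKO 5), against 11.7 CPM (control 1) and 13.1 CPM (control 6), and a log2 fold change of −0.32 ± 0.44; after TMM scaling both cKO libraries lay below both controls.

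Atp5g1, Atp5g2 and Atp5g3 encode the same mature c subunit of the membrane ring behind different import sequences. Atp5g1 took 33.3% and 22.8% of their joint reads in cKO 2 and cKO 5, against 21.5% and 29.2% in control 1 and control 6 (exact permutation p = 0.667). Atp5g2 took 33.2% and 39.7% in cKO and 40.4% and 37.7% in control, and the counts of Atp5g2 are uncertain because 87.4% of the 50-base stretches of its mRNA also occur in transcripts of other genes. Atp5g3 took 33.5% and 37.6% in cKO 2 and cKO 5, against 38.1% and 33.2% in control 1 and control 6. The shares of the genotypes overlapped for all 3 genes. The level of Atp5g1 itself was 58.3 CPM (cKO 2) and 52.4 CPM (cKO 5), against 41.95 CPM (control 1) and 46.4 CPM (control 6), so both cKO libraries lay above both controls in CPM.

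Levels per length of mRNA differed far more between genes than between genotypes. Subunits of a complex are built in near-fixed numbers, but the ranges below are not of such subunits alone. They also take in assembly factors, tissue-limited isoforms such as Cox7a1, and the supercomplex gene Cox7a2l. On the scale of mean CPM per kb of the principal mRNA, complex I ran from 1.17 for Ndufb2 to 144 for Ndufa9, a span of 123-fold. The mRNA taken was 4371 bases long for Ndufb2 and 4715 bases long for Atp5g1, and a shorter transcript would raise their levels per kb. The low place of Ndufb2 and the span of complex I thus rest on that choice of transcript. Complex II ran from 39.2 for Sdhc to 364 for Sdhd, complex III from 6.22 for Uqcrh to 162 for Cyc1, complex IV from 0.499 for Cox7a1 to 358 for Cox7a2l, and complex V from 2.19 for Atp5k to 911 for Atp5b. The 3 highest members on this scale were Atp5b, Sdhd and Cox7a2l, and the 3 lowest were Cox7a1, Cox6a2 and Ndufb2. The 19 genes with an mRNA of up to 600 bases had a median of 13.4 CPM per kb, the 31 of 600 to 1000 bases 30.5, the 31 of 1000 to 2000 bases 32.2 and the 10 longer ones 18.1. Across the 91 genes, which share libraries and are not independent, Spearman's rho between mRNA length and CPM per kb was 0.20.

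Sequence shared with other genes bears on these levels. No 50-base stretch of the mRNA was found in a transcript of another gene for 43 members, over 25% of stretches were shared for 15, and over 50% for Atp5g2, Atp5l, Cox7c and Atp5o. The sources used here do not give how reads with several matches were counted, so the levels of those 15 genes are uncertain. Cox5b (25.9% shared) and Ndufs5 (31.1% shared) are among them. Exons of 32 members overlap exons of another annotated gene, 29 of them on the opposite strand, and the strandedness of the libraries is not given either. The overlap covers more than 25% of exon bases in Ndufaf2, Atp5o, Ndufb6 and Ndufa13.

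**Figure D4:**
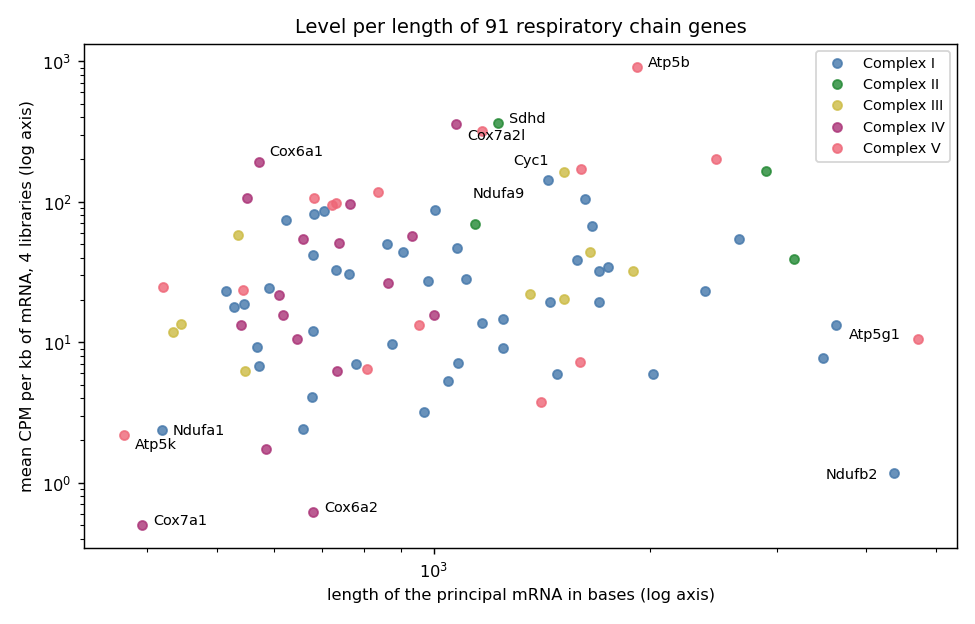
Each point is 1 of the 91 genes, with the length of its principal mRNA against its mean level over the 4 libraries in CPM per kb, both on log axes and coloured by complex. Atp5b, Sdhd and Cox7a2l lie at the top, at 911, 364 and 358 CPM per kb, and Cox7a1, Cox6a2 and Ndufb2 at the bottom. The place of Ndufb2 rests on a principal mRNA of 4371 bases.

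The promoters of these genes are known to bind the nuclear respiratory factor NRF1, ETS factors of the GABP type and YY1. BACH1 binds, with small MAF proteins, to antioxidant response elements. Promoter windows of 300 bases, from 250 before to 50 after the start, were available from RefSeq (GRCm38.p6) for 75 of the 91 genes. Motifs were searched as exact letters on both strands. The NRF1 motif, GCGCA and GCGC with any base between them, was found in 19 of the 75 (25.3%), beside 5.19% of 27025 genes with a window. No filter on gene type or on reads in these libraries was applied to the 27025 genes, whereas the members were all protein coding. The ETS motif CCGGAAG was found in 18 (24.0%), beside 9.93%, and the YY1 motif AAGATGGC in 12 (16%), beside 3.19%. The BACH1 and MAF motif TGACTCAGC was found in 0 of the 75, beside 0.503% of all genes. Its shorter core TGACNNNGC, which also matches every copy of the full motif, was found in 11 (14.7%), beside 13.99%. The full BACH1 and MAF motif is so rare over all genes that 0 of 75 carries little information. Sequence outside the 300-base windows was not searched. A match is a description of letters and not a binding site.

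The 3 windows shown are those of members from both sides of the comparison, written 5′ to 3′ on the gene's strand, with matches to the NRF1 motif and to the BACH1 and MAF core in capitals. Cox6a1 (chr5:115348909-115349208, minus strand) and Ndufs5 (chr4:123718137-123718436, minus strand) had both cKO libraries above both controls, and Sdha (chr13:74350191-74350490, minus strand) had both below them after TMM scaling.
Cox6a1: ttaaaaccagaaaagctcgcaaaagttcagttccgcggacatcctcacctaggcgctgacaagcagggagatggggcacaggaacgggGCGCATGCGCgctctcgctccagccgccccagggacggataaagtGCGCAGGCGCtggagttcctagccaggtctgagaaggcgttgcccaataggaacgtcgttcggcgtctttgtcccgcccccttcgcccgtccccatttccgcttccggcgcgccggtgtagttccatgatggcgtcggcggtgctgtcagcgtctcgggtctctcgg
Sdha: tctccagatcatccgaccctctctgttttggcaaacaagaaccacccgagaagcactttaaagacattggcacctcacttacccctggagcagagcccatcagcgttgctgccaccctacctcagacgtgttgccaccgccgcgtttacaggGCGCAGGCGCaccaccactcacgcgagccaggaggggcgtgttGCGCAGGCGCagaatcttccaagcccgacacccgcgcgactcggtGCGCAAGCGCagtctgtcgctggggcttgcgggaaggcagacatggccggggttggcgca
Ndufs5: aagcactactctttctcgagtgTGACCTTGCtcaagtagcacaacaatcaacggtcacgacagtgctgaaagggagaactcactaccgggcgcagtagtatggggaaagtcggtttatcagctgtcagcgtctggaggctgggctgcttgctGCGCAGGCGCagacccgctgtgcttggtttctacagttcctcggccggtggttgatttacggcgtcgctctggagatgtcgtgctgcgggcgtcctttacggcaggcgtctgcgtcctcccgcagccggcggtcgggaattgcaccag
The Cox6a1 window holds 2 matches to the NRF1 motif, that of Sdha holds 3, and that of Ndufs5 holds 1 match to each motif. These 3 windows were selected, and whether matches go with a side of the comparison was not tested. Ndufs5 had 10.7 and 8.65 CPM in cKO 2 and cKO 5 and 7.21 and 6.15 CPM in control 1 and control 6.

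**Figure D5:**
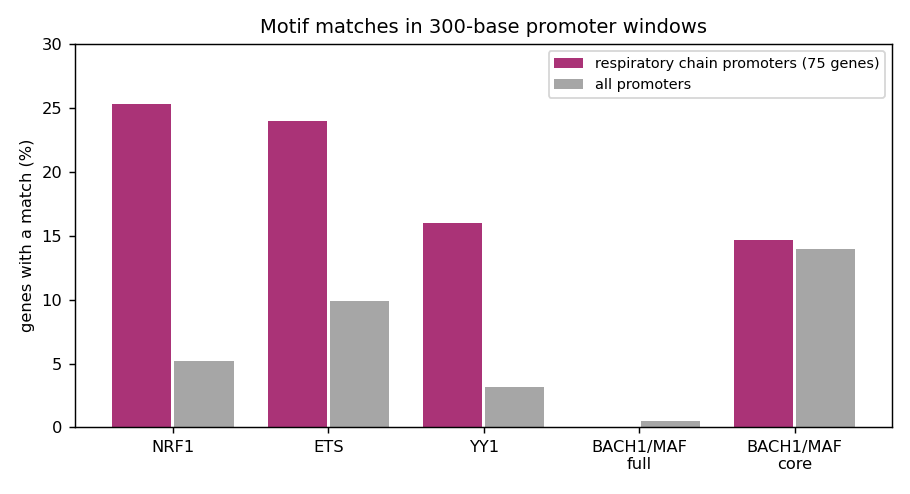
Bars give the percentage of genes with at least 1 match to each motif in the promoter window, for the 75 respiratory chain genes with a window and for all 27025 genes with one. The shares were 25.3% against 5.19% for NRF1, 24.0% against 9.93% for ETS and 16% against 3.19% for YY1, and 14.7% against 13.99% for the BACH1 and MAF core.

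The authors' deposited tables set each cKO library against each control library without replicates, and call a gene where p is under 0.05 and the log2 change reaches 1 in either direction. In the authors' deposited table of cKO 2 against control 1, 8 of the 91 members were called higher and 1 lower, beside 20.0% and 11.6% of all genes in that table. In the authors' deposited table of cKO 2 against control 6 the counts were again 8 and 1, beside 33.7% and 13.4%. For cKO 5, the authors' deposited tables called 2 higher and 2 lower against control 1, beside 8.79% and 26.0%, and 0 higher and 2 lower against control 6, beside 9.23% and 11.4%. For Ndufb2, log2 changes in the authors' deposited tables were 1.32 and 1.48 for cKO 2 and 0.53 and 0.68 for cKO 5, each against control 1 and control 6. For Cox6b2, those in the authors' deposited tables were 1.15 and 2.04 for cKO 2 and −0.051 and 0.84 for cKO 5. The values of cKO 5 were not called for either gene. For Ndufa4l2, the authors' deposited tables gave −0.26 and 2.05 for cKO 2 and −3.72 and −1.41 for cKO 5 against control 1 and control 6, and only the first of these was not called. The tables share libraries, so their calls are not independent of each other.

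In each list of genes that work with the respiratory chain, edgeR called 0 genes at an adjusted p under 0.05 and 0 at an unadjusted p under 0.05. Of 36 tested assembly factors outside the 91 genes, 23 had positive and 13 negative values (median log2 fold change 0.07), beside 0.03 over all genes. Of 14 TCA cycle genes, 6 were positive and 8 negative (−0.03). Mdh2, the mitochondrial malate dehydrogenase gene, had 324 and 196 CPM in cKO 2 and cKO 5 and 195 and 216 CPM in control 1 and control 6, so cKO 2 was highest and the genotypes overlapped. Among 16 regulators of mitochondrial biogenesis, 8 were positive and 8 negative (0.01), and the coactivator gene Ppargc1a had 9.99 and 0.104 CPM in cKO 2 and cKO 5 and 4.06 and 0.174 CPM in control 1 and control 6, so cKO 2 and control 1 were high. Its values in cKO 5 and control 6 lay at or under the floor of 3 reads and give no order between them. Of 8 tested genes for cytochrome c and the exchange of nucleotides and phosphate across the membrane, 5 were positive and 3 negative (0.03). Ckmt1, a mitochondrial creatine kinase gene, had 4.22 and 0.414 CPM in cKO 2 and cKO 5 and 0.286 and 0.580 CPM in control 1 and control 6, so cKO 2 stood apart.

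Among the respiratory genes carried by mitochondrial DNA, more had negative than positive log2 fold changes, each smaller than its standard error. Their median log2 deviation from the gene mean, after TMM scaling, was −0.36 in cKO 2 and 0.30 in cKO 5. It was 0.05 in control 1 and 0.02 in control 6. By these medians, the 2 cKO libraries lay on opposite sides of the controls. Of 11 tested, 3 had positive and 8 negative values, with a median log2 fold change of −0.08, and both cKO libraries lay above both controls for 2 of them and below for 0, where 8.33% and 7.64% of all tested genes did so. mt-Co1, the catalytic subunit of complex IV, had 2194 and 3374 CPM in cKO 2 and cKO 5 and 3766 and 2768 CPM in control 1 and control 6, so the genotypes overlapped. Genes of mitochondrial DNA took 1.09% and 1.30% of all reads in cKO 2 and cKO 5, against 1.38% and 1.18% in control 1 and control 6.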

How the data were processed

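The 4 libraries were taken from 4 deposited tables, each of 1 cKO library against 1 control library. The authors deposited raw read counts per gene. The normalized column holds CPM, in which library totals are set equal, and per the file headers the fold change and log2 fold change compare those values; a count of 0 had been given the value of 0.5 reads. For the p-values that the authors deposited, the sources used here name no test. HTSeq 0.6.0, TopHat2 2.0.12, Bowtie2 2.2.3 and the build mm9 are listed without roles in the submitters' processing notes, but 90.3% of 21932 matched genes had GENCODE M21 (GRCm38) positions, which are therefore printed.

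Counts were joined by Ensembl ID, and 18723 genes had a count in all libraries. The members and gene lists were chosen with earlier results of these data known. Genotypes were compared on all genes with edgeR 4.0.16 in R 4.3.3 (quasi-likelihood, TMM, filterByExpr with a minimum count of 10, Benjamini-Hochberg adjustment, threshold 0.05, two-sided), with DESeq2 1.42.0 and limma 3.58.1 as alternatives. The fit was also run on simulated counts with changes larger than that of any member. That run does not measure its power for changes as small as theirs. Sums and isoform shares used the exact permutation test, with 3 distinct splits. Lengths and 50-base stretches came from GENCODE M21 principal transcripts, the longest where several shared the best rank. Named members were the isoform families, the Sdh genes and a few catalytic subunits, the 4 with the smallest p in each direction, the ends of fold change in each complex and the 3 highest and lowest per length. Ndufs3, Ndufs5, Cox5b, Uqcr10 and Uqcr11 were named after their values were seen. A few genes that the rule names are not reported here.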

Additional observations from a re-analysis of the deposited data

How the results depend on the processing

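No member passed an adjusted p under 0.05 in the main edgeR test or under any alternative run: RLE factors, library totals only, scaling to microglial markers, no filter on low counts, DESeq2, limma-voom, or leaving out each library. Genes at an unadjusted p under 0.05 numbered 49 in the main fit, 149 without the filter, 583 without cKO 2 (514 of them lower), 1784 without cKO 5, 40 without control 1 and 10 without control 6. Members among them numbered 0, except Ndufa4l2, which was lower without cKO 2. For the named genes and the medians of the members and complexes, RLE factors, DESeq2, limma-voom and no filter turned no direction, except that Ndufa9 was just below 0 with limma-voom. Positive members numbered 61, 60 and 59 of 89 with RLE factors, DESeq2 and limma-voom, against 60 in the main fit, and limma-voom put the median of all genes at −0.03. These settings kept the one-sided counts within 1.5 times. Library totals alone gave complex IV a median log2 fold change of 0.12 and Uqcrc1 0.076. Microglial scaling left 3 members above both controls and 0 below, with medians of 1.22 over all members and 1.26, 0.92, 1.35, 1.08 and 1.08 in complexes I to V, while the median of all genes moved to 1.12. It turned Ndufb8 (0.65), Ndufs8 (0.63), Sdha (0.86), Sdhd (0.76), Uqcrc1 (1.08), Ndufa4l2 (0.89), Cox4i2 (0.89), Cox7a2l (0.70) and Atp5s (0.86) positive, and the summed difference (cKO minus control) of complex II to 754 CPM. TMM scaling turned that of complex IV to −0.226 CPM, and shares per kb turned that of Atp5g3 to 0.797 percentage points. The cause was not tested.

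Leaving out each library in turn, members above both controls ranged from 28 to 47 and below from 7 to 30; a single library then stands for 1 genotype and is assumed to vary like the rest, and fewer libraries overlap less. Median log2 fold changes ranged from −0.015 to 0.20 in complex I, −0.32 to 0.20 in complex II (−0.04 in the main fit), 0.079 to 0.27 in complex III, 0.063 to 0.18 in complex IV and −0.14 to 0.18 in complex V. Single genes ranged from −0.78 to 0.089 for Ndufs8, −0.068 to 0.12 for Ndufs1, −0.037 to 0.23 for Sdhb, −0.70 to 0.32 for Sdhd, −0.085 to 0.091 for Uqcrc1, −2.81 to 0.84 for Ndufa4l2, −1.99 to 1.24 for Cox4i2, −0.69 to 0.39 for Cox7a2l and −0.012 to 0.19 for Atp5b. Summed differences ranged from −35.4 to 283 CPM in complex I, −120.4 to 42.9 CPM in complex II and −25.1 to 92.1 CPM in complex IV. Differences in isoform share ranged from −6.02 to 3.10 percentage points for Cox4i2, −37.97 to 5.42 for Ndufa4l2, −2.55 to 7.95 for Atp5g1, −5.85 to 0.625 for Atp5g2 and −2.55 to 2.37 for Atp5g3. The summed levels of complexes III and V and of all members kept their direction in each of these fits.

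No paired analysis was run, because the labels give no litter or other pairing of the libraries. Counts of the scarcest members are limited by depth: Cox6a2 and Cox7a1 had between 1 and 12 reads in a library.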

Other observations

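Reads of mitochondrial DNA were spread unevenly over its genes. mt-Cytb, the cytochrome b gene of complex III, had 4244 and 3348 CPM in cKO 2 and cKO 5 and 3749.5 and 4212 CPM in control 1 and control 6. mt-Co2 and mt-Co3, which like mt-Co1 encode the core of complex IV, had 6.99 and 5.85 CPM and 2.54 and 2.59 CPM in the cKO libraries, against 5.55 and 5.34 CPM and 2.23 and 1.57 CPM in the controls. mt-Nd4l was listed at 0 in control 6 and had at most 0.347 CPM elsewhere. Nuclear genes of complex IV such as Cox7a2l, at 288 to 473 CPM, and Cox6a1, at 95.9 to 130 CPM, thus had more reads than those 2 core genes of mitochondrial DNA. The sources used here do not give how reads with several genomic matches were counted.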
